A study of Mus musculus with 36 samples.

Results

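Mouse multipotent progenitors (MPP), blood progenitors that can still give rise to all blood lineages, were profiled after 24 h of TGF-β1 and compared with untreated MPP. The MPP were grown from mouse bone marrow in culture with a cytokine mix and sorted by FACS, and the treated cultures received 10 ng/ml recombinant human TGF-β1. Each of the 2 groups holds 3 biological replicates by the study's account, so the comparison rests on 6 of the 36 arrays of the series (Affymetrix Mouse Gene 1.0 ST). The other arrays are MPP at 2, 4, 8 and 12 h and common dendritic cell progenitors (CDP), the dendritic-restricted progeny of MPP, at the same times. No untreated MPP cultured for 24 h were analysed here, so TGF-β1 and 24 h more in culture cannot be told apart as sources of a change. Strain, sex and age of the mice are not given in the sources used here. The sample labels name the 8 h time point, for which the treatment text has 6 h.

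TGF-β1 binds a type II receptor, which recruits and activates the type I receptor Tgfbr1. This receptor phosphorylates Smad2 and Smad3, which enter the nucleus with Smad4 and switch target genes on or off, among them genes for proteins that shut the pathway down again. In blood progenitors TGF-β is known as a brake on proliferation, and in the dendritic lineage it is required for the dendritic cells of the epidermis, called Langerhans cells.

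The labelled cell type was checked first. Untreated MPP had log2 intensities of 11.30, 11.20 and 11.40 for Kit, the stem cell factor receptor, against 8.40, 8.86 and 8.63 in untreated CDP. Flt3, a cytokine receptor that dendritic progenitors carry at high levels, ran the other way, with 10.75, 10.23 and 9.69 in untreated MPP, against 12.42, 12.40 and 12.28 in untreated CDP. Cd34, Myb and Gata2 were also higher in untreated MPP than in untreated CDP on all 3 arrays of each group. So was Meis1 by a narrow margin, while the Hoxa9 levels overlapped. Cd48 and Ptprc were lower in untreated MPP. Cd48 had 11.20, 11.135 and 11.04 in untreated MPP, against 11.50, 11.57 and 11.64 in untreated CDP. Ptprc had 12.30, 12.39 and 12.29 in untreated MPP, against 12.90, 12.83 and 12.98 in untreated CDP. Ly6a (Sca-1) was not analysed here. Genes of early granulocytes were bright in MPP, with Mpo at 13.97 ± 0.04 at 24 h and 14.003 ± 0.02 in untreated MPP (SD, n = 3 each). Arrays of the 2 groups correlated at 0.996 or more within their group. Untreated MPP replicate 3 stood apart most: 44 genes lay more than 1 log2 unit from the mean of the other 2 untreated arrays. The counts were 28 for replicate 1 and 12 for replicate 2. Of the 44 genes 37 were higher. Not all of them are particular to this array. Xist had 6.96, 13.65 and 13.63 in untreated MPP, so replicate 1 was the low one. Camp had 9.02, 10.30 and 11.07 at 24 h, against 8.64, 9.96 and 10.74 in untreated MPP, the same order in both. For several genes named below, values are given with and without untreated MPP replicate 3. The log2 fold change at 24 h against untreated MPP was −2.01 for Il1b with this array and −1.29 without it. For Acod1 it was −1.06 with and −0.25 without. Neither Il1b nor Acod1 was called. Replicate 1 differed from the others in sex-linked transcripts at all times (Eif2s3y had 10.38, 5.08 and 5.18 at 24 h, against 10.45, 5.16 and 5.16 in untreated MPP), which the replicate block takes up.

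Of 19938 genes tested, 240 were called, 1.20% of all: 143 were higher at 24 h (0.717%) and 97 lower (0.487%). A call required that the p adjusted by Benjamini-Hochberg be under 0.01 and that the log2 fold change reach 1 in size, in a limma fit of all 18 MPP arrays with the replicate number as a block. In all 240 the 3 same-numbered pairs had 1 direction, and the groups did not overlap, which also held for 26.9% of all genes. The change reached 2 log2 units or more in 24 genes that rose and in 19 that fell. Values below are log2 intensities, and changes are log2 fold changes at 24 h against untreated MPP, ± SE of the fit with 3 arrays per group. RMA compresses large changes of dim genes towards the background. Since RNA was taken from whole cultures, fewer cells of a type and less RNA per cell cannot be told apart.

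Chad had the largest rise. It encodes chondroadherin, a leucine-rich matrix protein of cartilage. Its log2 intensity was 12.34, 11.77 and 11.99 at 24 h, against 7.30, 6.92 and 7.22 in untreated MPP. All 3 treated arrays were bright and all untreated ones near the dim end of the scale, a change of 4.89 ± 0.06 or 29.6-fold (adjusted p = 8.31e-17). Pmepa1, a membrane protein that sequesters receptor-activated Smads, had 11.82, 11.63 and 11.72 at 24 h, against 8.11, 7.18 and 7.48 in untreated MPP, and rose by 4.13 ± 0.12 (17.5-fold, adjusted p = 3.65e-12). Next came genes of cell contact and the membrane. Cd96, an immunoglobulin superfamily receptor of T and NK cells that binds the poliovirus receptor, had 11.78, 11.31 and 11.41 at 24 h, against 7.87, 7.93 and 8.04 in untreated MPP. Kcne3, a regulatory subunit of potassium channels, had 10.84, 10.42 and 10.73 at 24 h, against 6.94, 7.34 and 7.21 in untreated MPP. Both rose, Cd96 by 3.55 ± 0.10 and Kcne3 by 3.50 ± 0.11, with no overlap between the groups. Itgae, the αE chain of the integrin that binds E-cadherin, rose by 3.47 ± 0.12, and Axl, a receptor tyrosine kinase that recognises dying cells through Gas6, by 3.23 ± 0.09.

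Genes for secreted products stood among the 20 largest rises, namely Mcpt2 (a mast cell protease) and Il6 (an inflammatory cytokine). Mcpt2 had 10.41, 9.79 and 9.19 at 24 h, against 7.36, 6.47 and 5.64 in untreated MPP, so the replicates were spread over more than 1 log2 unit in each group and kept the same order in both. Its change of 3.31 ± 0.29 was called with the replicate block (adjusted p = 5.87e-07) and not without it (3.31, adjusted p = 0.0281). Il6 had 8.79, 8.43 and 8.89 at 24 h, against 5.82, 5.67 and 6.08 in untreated MPP, a rise of 2.85 ± 0.12. The remaining genes of the 20 rose by 2.11 to 2.75. They were Rasgrp3 (a Ras activator), Itgax (the CD11c integrin chain of dendritic cells), Spsb1 (an adaptor that marks Tgfbr2 for degradation), Lax1 (an adaptor that dampens antigen receptor signals), Tfr2 (transferrin receptor 2), Nt5e (CD73, which makes adenosine from AMP), Emp1, Pald1, Ldlrad4 (an inhibitor of Smad phosphorylation), Tmem119, Inpp4b (a phosphoinositide phosphatase) and Havcr2 (the inhibitory receptor TIM-3).

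**Figure D1:**
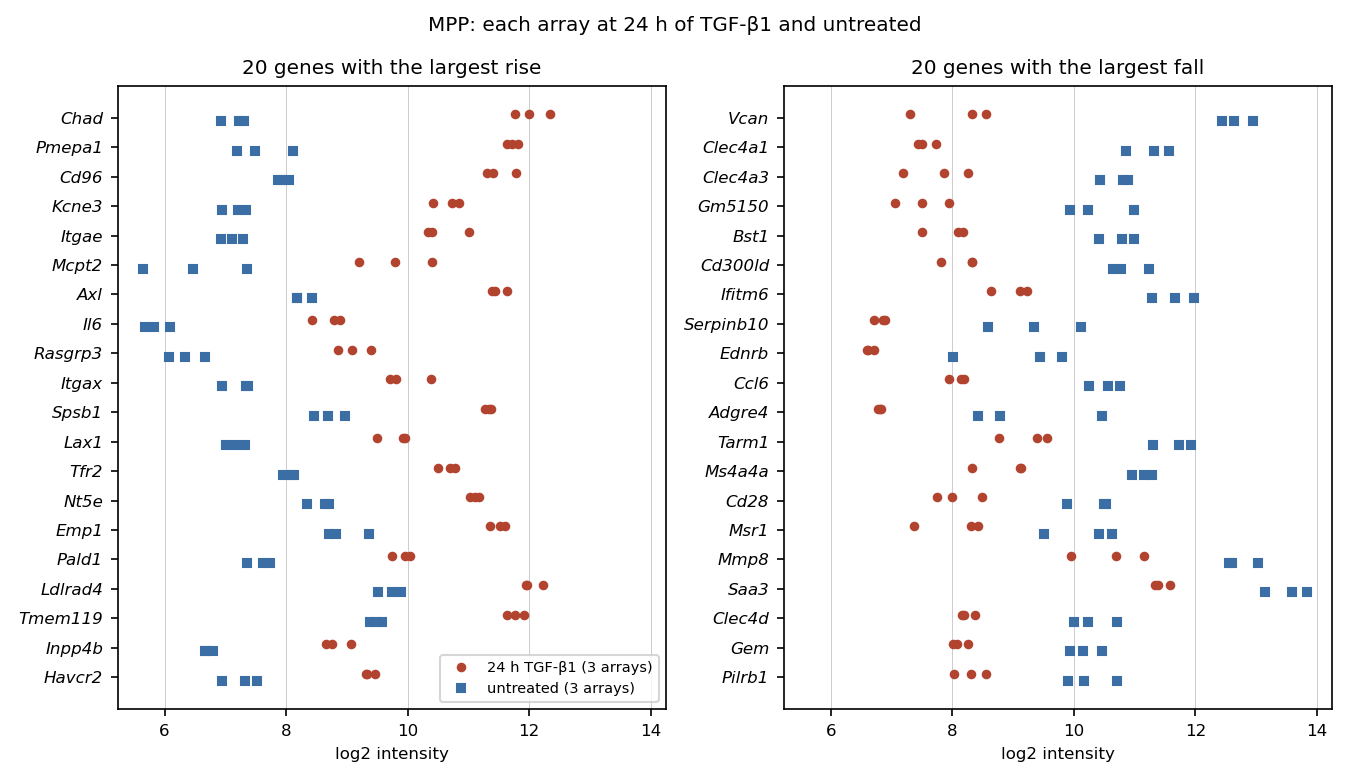
Log2 intensity (x axis) of the 20 genes with the largest rise (left) and the 20 with the largest fall (right) in MPP, 1 row per gene. Red circles are the 3 arrays at 24 h of TGF-β1 and blue squares the 3 untreated arrays, and in every row the groups do not overlap. Chad lies at 11.77 to 12.34 at 24 h, against 6.92 to 7.30 untreated, and Vcan at 7.30 to 8.55 at 24 h, against 12.44 to 12.95 untreated.

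The largest fall was that of Vcan, which encodes versican, a large chondroitin sulphate proteoglycan that monocytic cells make. Vcan had 7.30, 8.55 and 8.32 at 24 h, against 12.44, 12.95 and 12.64 in untreated MPP. Untreated MPP were uniformly bright, while the treated arrays spread over more than 1 log2 unit below them, and the change was −4.62 ± 0.15 (24.6-fold lower, adjusted p = 1.19e-11). The C-type lectin receptor genes Clec4a1 and Clec4a3 followed. Clec4a1 had 7.44, 7.50 and 7.73 at 24 h, against 10.85, 11.31 and 11.56 in untreated MPP, and fell by 3.69 ± 0.18, while Clec4a3 fell by 2.95 ± 0.09. These 2 genes are close paralogs, and probes may be shared between them. Gm5150 (a SIRP-like receptor gene), Bst1 (an ectoenzyme of NAD metabolism on myeloid and stromal cells), Cd300ld (a paired receptor), Ifitm6 and Serpinb10 fell too, with changes of −2.88 to −2.53.

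Ednrb, the endothelin B receptor, had 6.70, 6.60 and 6.61 at 24 h, against 9.44, 9.80 and 8.02 in untreated MPP. The treated arrays lay close together near the dim end of the scale, and the untreated ones were spread over more than 1 log2 unit, with replicate 3 the lowest. Its change was −2.45 ± 0.26. Ccl6 (a CC chemokine), Adgre4 (an adhesion receptor of macrophages), Tarm1 (an activating receptor of myeloid cells), Ms4a4a, Cd28 (the T-cell costimulatory receptor), Msr1 (scavenger receptor A), Mmp8 (neutrophil collagenase), Saa3 (serum amyloid A3), Clec4d, Gem (a small GTPase) and Pilrb1 fell with changes of −2.43 to −1.97. Among them Adgre4 had the widest untreated arrays. It had 6.82, 6.78 and 6.83 at 24 h, against 8.42, 8.79 and 10.46 in untreated MPP, with untreated replicate 3 the highest by more than 1 log2 unit. Its change was −2.41 ± 0.42 with that array and −1.79 without it, still called, −1.80 without replicate 3 of every time, and its call was lost without replicate 1 (−2.82, adjusted p = 0.0106).

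The promoters of 3 genes that the results turn on are shown because they carry the largest rise, the largest fall and the rise of the cytokine Il6, which was not called in CDP. They are the 250 bases before and 50 after the RefSeq start site (mouse build GRCm38.p6), 5′ to 3′ on the gene's strand, with matches to the motifs searched in capitals.
Chad (chr11:94564797-94565096, + strand): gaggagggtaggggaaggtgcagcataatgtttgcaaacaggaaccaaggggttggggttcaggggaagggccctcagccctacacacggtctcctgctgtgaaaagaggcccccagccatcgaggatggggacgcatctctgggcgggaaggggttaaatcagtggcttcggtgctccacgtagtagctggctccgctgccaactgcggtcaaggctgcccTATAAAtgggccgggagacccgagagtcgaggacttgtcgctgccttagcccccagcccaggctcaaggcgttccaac
Il6 (chr5:30012864-30013163, + strand): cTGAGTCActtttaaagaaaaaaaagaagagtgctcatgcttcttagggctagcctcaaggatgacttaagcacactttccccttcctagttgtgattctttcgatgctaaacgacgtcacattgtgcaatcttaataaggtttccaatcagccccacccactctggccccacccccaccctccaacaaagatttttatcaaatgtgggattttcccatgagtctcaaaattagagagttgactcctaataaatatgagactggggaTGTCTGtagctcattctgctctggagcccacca
Vcan (chr13:89742463-89742762, − strand): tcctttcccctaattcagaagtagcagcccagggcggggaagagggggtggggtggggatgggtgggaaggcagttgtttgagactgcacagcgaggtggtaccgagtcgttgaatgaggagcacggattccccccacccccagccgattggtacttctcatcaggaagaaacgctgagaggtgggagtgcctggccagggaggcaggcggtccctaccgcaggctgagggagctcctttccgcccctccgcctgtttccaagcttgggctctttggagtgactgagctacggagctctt
The motifs searched on both strands were the Smad box CAGACA, the AP-1 motif TGACTCA, a PU.1 motif GAGGAAGT, the E-box CACGTG and the TATA motif TATAAA. The capitals mark a TATA motif 28 bases before the start of Chad, an AP-1 match 249 bases before the start of Il6 and a Smad box after it. The Vcan window holds none of the 5. Of 15614 tested genes with a promoter in the table, 20.7% held the Smad box, as did 27 of 111 genes that rose (24.3%) and 15 of 69 that fell (21.7%). The AP-1 motif was in 5.41% of all, in 14 of 111 that rose (12.6%) and in 5 of 69 that fell (7.25%). The PU.1 motif was in 3.24% of all, in 8 of 111 (7.21%) and in 6 of 69 (8.70%). For the E-box the shares were 9.50% of all, 8.11% and 11.6%, and for the TATA motif 13.6% of all, 11.7% and 20.3%. These counts describe letters in a short window, and many genes have more than 1 start site.

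Among the components of the TGF-β pathway, the receptors and the inhibitors carried calls, and the ligands and the receptor-activated Smads carried none. Of 13 TGF-β family receptors measured, 2 rose and none fell, with a list median of 0.12 beside −0.01 over all genes. Tgfbr1, the type I receptor, had 11.92, 11.90 and 11.68 at 24 h, against 10.37, 10.33 and 9.94 in untreated MPP, a rise of 1.62 ± 0.07 (3.08-fold). Eng, the co-receptor endoglin, rose by 1.06 ± 0.07, and its call was lost without replicate 1 (0.96) and without MPP 24 h replicate 1 (0.999). The type II receptor Tgfbr2 was 10.62 ± 0.16 at 24 h and 9.92 ± 0.11 in untreated MPP (SD, n = 3 each), a difference of 0.70 ± 0.06 below the fold limit. The BMP type II receptor Bmpr2 (0.47 ± 0.09), the type I receptors Acvr1 (0.49 ± 0.04) and Acvr1b (0.41 ± 0.07) and the co-receptor Tgfbr3 (betaglycan, −0.67 ± 0.09) likewise did not reach the fold limit. The other members, Acvrl1, Acvr1c, Acvr2a, Acvr2b, Bmpr1a and Bmpr1b, lay between −0.24 and 0.12.

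None of the 6 Smad genes that transmit the signal was called. Smad3 had the largest difference, −0.40 ± 0.08, with 9.42, 9.17 and 9.43 at 24 h, against 9.83, 9.69 and 9.69 in untreated MPP. Smad1, Smad2, Smad4, Smad5 and Smad9 lay between −0.09 and 0.15. Of 17 ligands and activators measured none was called either. Tgfb1 itself was bright and had 12.96, 12.89 and 13.02 at 24 h, against 12.74, 12.85 and 12.87 in untreated MPP, so the groups lay side by side with no overlap, a difference of 0.14 ± 0.10 (adjusted p = 0.443). Tgfb3 (0.51 ± 0.06) and Ltbp3, which stores latent TGF-β (0.51 ± 0.07), were above and Inhba, the activin A subunit (−0.65 ± 0.08), and Thbs1, which activates latent TGF-β (−0.61 ± 0.05), below untreated MPP by less than the fold limit. The other 12 lay between −0.18 and 0.02, and many of them sat near the dim end of the scale.

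Of 18 feedback inhibitors of the pathway measured, 6 rose and none fell, with a median of 0.37. The study named several of them from these samples, so the list is not independent evidence of its direction. After Pmepa1 came Spsb1 with 11.34, 11.28 and 11.37 at 24 h, against 8.68, 8.97 and 8.45 in untreated MPP, a rise of 2.63 ± 0.09, and Ldlrad4 with 2.32 ± 0.05. Skil and Ski, nuclear proteins that hold Smad targets silent, rose by 1.60 ± 0.09 and 1.41 ± 0.06. Smad7, the inhibitory Smad that blocks the type I receptor, had 10.49, 10.22 and 10.49 at 24 h, against 8.81, 8.92 and 8.77 in untreated MPP, a rise of 1.56 ± 0.09. The replicates of Smad7 and of Ski lay close together in both groups. The other inhibitory Smad, Smad6, was 8.76 ± 0.05 at 24 h and 8.15 ± 0.19 in untreated MPP, a difference of 0.61 ± 0.07. The ubiquitin ligases Smurf1 (0.46 ± 0.06), Nedd4l (0.38 ± 0.06) and Smurf2 (0.35 ± 0.05) were above untreated MPP by less than the fold limit, and the remaining members lay between −0.19 and 0.17.

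Of 19 transcription factors of the Id, Hes, Klf and Runx families and their relatives, 1 rose and none fell. Hes1, a repressor best known as a Notch target, had 9.25, 8.65 and 8.86 at 24 h, against 7.21, 7.30 and 7.24 in untreated MPP, a rise of 1.67 ± 0.10. Runx3, a partner of Smads in lymphoid and dendritic cells, was 12.61 ± 0.14 at 24 h and 11.74 ± 0.07 in untreated MPP, a difference of 0.87 ± 0.07 below the fold limit. Id2, which dendritic cells need, was bright in both groups and differed by −0.23 ± 0.08.

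Single genes of cell contact rose in several families, beside 0.717% of all genes that rose. Of 19 integrin chains 3 rose and none fell. The list median was −0.05, with 9 chains above and 10 below untreated MPP, so the list as a whole did not rise. Itgae had 11.002, 10.34 and 10.41 at 24 h, against 6.93, 7.10 and 7.29 in untreated MPP. Itgax had 10.38, 9.81 and 9.71 at 24 h, against 7.35, 7.37 and 6.94 in untreated MPP, a rise of 2.75 ± 0.11. In both genes replicate 1 was the highest treated array and the groups were at least 2 log2 units apart. Itgb5, a β chain that pairs with αV and binds vitronectin, rose by 1.55 ± 0.10. The chains of leukocyte integrins already bright in MPP were Itga4 (−0.10 ± 0.10), Itgb2 (−0.21 ± 0.05), Itga6 (0.35 ± 0.06) and Itgam (−0.12 ± 0.07). Of 18 selectins and other adhesion genes 4 rose and 1 fell, with a median of 0.16. Beside Cd96 these were 3 genes of epithelial junctions. Cldn1, a claudin of tight junctions, had 9.03, 8.39 and 8.77 at 24 h, against 6.63, 6.59 and 7.04 in untreated MPP, a rise of 1.98 ± 0.13. F11r, the junctional adhesion molecule A, rose by 1.76 ± 0.11, and Cdh1, E-cadherin, by 1.04 ± 0.13, a call that was lost without replicate 1 (0.83) and without MPP 24 h replicate 1 (0.81). Sdc4, a heparan sulphate proteoglycan, fell by 1.02 ± 0.16, a call that was lost without replicate 3 (−0.77), without MPP 24 h replicate 2 (−0.98), without MPP 24 h replicate 3 (−0.96) and without untreated MPP replicate 3 (−0.78). Cd34 (0.58 ± 0.05) and Pecam1 (0.57 ± 0.06) were above untreated MPP by less than the fold limit.

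In the list of matrix proteins and matrix enzymes 2 of 26 rose and 3 fell, and its median was −0.04. Chad and Vcan, at the 2 ends of the whole response, both belong to it. Mmp2, gelatinase A, rose by 1.02 ± 0.14, with replicate 2 the lowest treated array (9.24, 8.25 and 9.01 at 24 h). Its call was lost without replicate 1 (0.77, adjusted p = 0.0129), without replicate 3 (0.999), without MPP 24 h replicate 1 (0.84), without MPP 24 h replicate 3 (0.98) and without untreated MPP replicate 1 (0.89). Mmp8 fell by 2.13 ± 0.17. Lox, the collagen cross-linking oxidase, fell by 1.27 ± 0.17. It had 6.40, 6.18 and 6.30 at 24 h, against 7.13, 7.47 and 8.09 in untreated MPP. Its call was lost with array weights (−0.97) and with limma's treat test at a log2 fold of 0.5 (adjusted p = 0.0111). Tgfbi, a matrix protein named for its induction by TGF-β in other cells, was among the brightest of the list and had 13.35, 13.59 and 13.48 at 24 h, against 13.46, 13.68 and 13.24 in untreated MPP. Fn1, fibronectin, differed by −0.46 ± 0.10. Of 5 TAM receptors and ligands only Axl rose, with 11.64, 11.44 and 11.39 at 24 h, against 8.18, 8.17 and 8.42 in untreated MPP, while its relatives Mertk (−0.28 ± 0.10) and Tyro3 (−0.02 ± 0.05) and the ligands Gas6 (−0.11 ± 0.06) and Pros1 (−0.57 ± 0.11) were not called.

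Among cytokines and their receptors the calls went both ways. Of 30 chemokines and cytokines 2 rose and 4 fell. Il6 rose, and Il6st, the gp130 chain through which IL-6 signals, fell by 1.14 ± 0.11, with 11.04, 11.34 and 11.23 at 24 h, against 12.42, 12.57 and 12.05 in untreated MPP. Cxcl16, a membrane-bound chemokine, had 10.28, 10.01 and 10.21 at 24 h, against 7.94, 8.39 and 9.11 in untreated MPP. Its untreated arrays were spread over more than 1 log2 unit with replicate 3 the highest, and its rise of 1.68 ± 0.23 was not called without replicate 1 (1.36, adjusted p = 0.0108). The CC chemokine genes Ccl6 (−2.43 ± 0.09), Ccl9 (−1.23 ± 0.05) and Ccl3 (−1.62 ± 0.33) and the inflammasome product Il18 (−1.33 ± 0.15) fell. Ccl9 was tight, with 10.73, 10.90 and 10.83 at 24 h, against 12.06, 12.02 and 12.06 in untreated MPP, and Ccl3 was not. Ccl3 had 10.30, 10.64 and 10.56 at 24 h, against 11.67, 11.95 and 12.75 in untreated MPP, and its call was lost without replicate 1 (−1.75, adjusted p = 0.031), without replicate 2 (−1.78, adjusted p = 0.0106), without MPP 24 h replicate 1 (−1.57, adjusted p = 0.0157), without MPP 24 h replicate 2 (−1.56, adjusted p = 0.0147) and without untreated MPP replicate 3 (−1.17, adjusted p = 0.0132).

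Of 14 chemokine receptors 2 rose. Cxcr2, which guides neutrophils and their progenitors, had 12.00, 12.03 and 11.97 at 24 h, against 10.24, 10.21 and 9.51 in untreated MPP, a rise of 2.01 ± 0.11. Cxcr3 rose by 1.11 ± 0.08, a call that was lost without replicate 3 (0.999). Cx3cr1, which monocytes and dendritic progenitors carry, was 11.21 ± 0.05 at 24 h and 10.27 ± 0.17 in untreated MPP, a difference of 0.94 ± 0.12 just under the fold limit, and Ccr2 (−0.21 ± 0.06) and Cxcr4 (0.35 ± 0.04) were not called. Among 27 growth factor and cytokine receptors 1 rose and 2 fell. Flt3 had 11.70, 11.40 and 11.18 at 24 h, against 10.75, 10.23 and 9.69 in untreated MPP, a rise of 1.20 ± 0.10, with replicate 1 highest in both groups. Il1r2, the decoy receptor for IL-1, fell by 1.05 ± 0.11, a call that was lost without replicate 2 (−0.82), without MPP 24 h replicate 2 (−0.90) and without untreated MPP replicate 2 (−0.92). Csf1r, the M-CSF receptor gene, was bright in both groups and differed by 0.08 ± 0.06.

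Of the signalling genes named here, 5 rose and 1 fell. Rasgrp3 had 9.40, 9.08 and 8.85 at 24 h, against 6.33, 6.67 and 6.06 in untreated MPP. The Gα subunits Gna14 (1.85 ± 0.11) and Gna15 (1.28 ± 0.07), the G protein brake Rgs1 (1.61 ± 0.09) and the ERK phosphatase Dusp6 (1.10 ± 0.09) rose. The call of Dusp6 was lost without replicate 3 (0.99) and without untreated MPP replicate 3 (0.95). The small GTPase gene Gem fell by 2.07 ± 0.12, with 8.08, 8.26 and 8.01 at 24 h, against 10.46, 10.15 and 9.93 in untreated MPP.

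Receptors of the innate myeloid cell surface had more falls than any other list. Of 34 C-type lectins and paired immune receptors 14 fell and 1 rose, with a median of −0.47, beside 0.487% of all genes that fell. The C-type lectins that fell were Clec4a1, Clec4a3, Clec4d (−2.08 ± 0.21), Clec4n (−1.96 ± 0.23), Clec4e (−1.47 ± 0.21) and Clec4a2 (−1.10 ± 0.08). Clec4d, Clec4e and Clec4n encode MCL, Mincle and Dectin-2, which bind glycolipids and mannans of fungi and mycobacteria. Clec4e had 10.75, 10.90 and 10.86 at 24 h, against 11.99, 12.22 and 12.70 in untreated MPP. The paired receptor genes Pilra (−1.83 ± 0.15), Pilrb1 (−1.97 ± 0.18), Pilrb2 (−1.59 ± 0.19), Pirb (−1.48 ± 0.09), Lilrb4a (−1.05 ± 0.14), Cd300ld (−2.74 ± 0.10), Tarm1 (−2.41 ± 0.12) and the Fc receptor gene Fcgr4 (−1.69 ± 0.12) fell too. Tarm1 had 8.77, 9.40 and 9.56 at 24 h, against 11.30, 11.93 and 11.73 in untreated MPP. Several of these genes have near-identical copies (Pilrb1 and Pilrb2, Lilrb4a and Lilr4b, Pirb and the Pira genes) whose probes may not be told apart, so their falls are not separate observations.

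Siglech, a lectin of plasmacytoid dendritic cells, was the member that rose, by 1.53 ± 0.13. The bright members Fcer1g (−0.02 ± 0.05), Sirpa (−0.29 ± 0.04), Clec12a (−0.14 ± 0.05) and Fcgr2b (−0.34 ± 0.07) were not called. The call of Lilrb4a was lost without replicate 3 (−0.99), without MPP 24 h replicate 2 (−0.99) and without untreated MPP replicate 3 (−0.87), and without the last of these arrays the list held 13 falls. Clec4a2 was not called without the replicate block (−1.10, adjusted p = 0.0172), nor without replicate 1 (−0.98) and without MPP 24 h replicate 1 (−0.99).

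Of 19 innate sensing receptors 3 fell and none rose: the scavenger receptor Msr1, the complement receptor C5ar1 (−1.49 ± 0.17) and Cd14, the lipopolysaccharide co-receptor. Msr1 had 7.37, 8.42 and 8.31 at 24 h, against 9.51, 10.63 and 10.42 in untreated MPP, and fell by 2.15 ± 0.14. Cd14 had 8.80, 8.89 and 8.99 at 24 h, against 9.76, 10.05 and 10.74 in untreated MPP. Its change of −1.29 ± 0.29 was not called without the replicate block (−1.29, adjusted p = 0.0131), nor without replicate 1 (−1.46, adjusted p = 0.037), without replicate 2 (−1.35, adjusted p = 0.0221), without replicate 3 (−1.06, adjusted p = 0.0152), without MPP 24 h replicate 1 (−1.27, adjusted p = 0.0242), without MPP 24 h replicate 2 (−1.19, adjusted p = 0.0299) and without untreated MPP replicate 3 (−0.89, adjusted p = 0.0281). Tlr13 (−0.84 ± 0.06) was below untreated MPP by less than the fold limit, and Tlr2 (0.05 ± 0.19) and Myd88 (−0.30 ± 0.04) were not called. In the complement and coagulation list 5 of 20 fell and 1 rose, with a median of −0.44. The falls were Serpinb10, C5ar1, C3ar1 (the C3a receptor, −1.11 ± 0.08) and the coagulation factors F5 (−1.25 ± 0.10) and F10 (−1.21 ± 0.06). F10 had 9.94, 10.51 and 10.31 at 24 h, against 11.09, 11.64 and 11.66 in untreated MPP. F2r, the thrombin receptor, had 10.42, 9.90 and 10.26 at 24 h, against 8.23, 8.19 and 8.22 in untreated MPP, a rise of 1.98 ± 0.07. F13a1, a factor XIII subunit of monocytic cells, was 12.26 ± 0.41 at 24 h and 13.24 ± 0.26 in untreated MPP, a difference of −0.99 ± 0.06 just under the fold limit.

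Of 23 monocyte and macrophage markers 6 fell and none rose, with a median of −0.33. They were Vcan, Ccl6, Msr1, Cd14, Maf (a macrophage transcription factor, −1.67 ± 0.16) and Adgre1 (a macrophage surface antigen gene, −1.20 ± 0.08). The summed log2 level of the list was 221.5 to 227.6 at 24 h, against 238.3 to 244.5 in untreated MPP. This sum includes the 6 called genes, so it is not evidence apart from their calls. Lyz2 (−0.20 ± 0.05), Ms4a6c (−0.08 ± 0.05) and Ccr2, among the brightest members, were not called. The part that a change in the share of monocytic cells has in these falls was not tested.

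In the inflammatory lists much of the difference lay in 1 untreated array, and their medians moved most of all lists when it was left out. Of 19 NF-κB genes 1 fell, Ptgs2 (cyclooxygenase 2), and of 26 interferon-stimulated genes 2 fell, Ifitm6 and Oas2. The mean log2 level of the NF-κB list was 9.35, 9.30 and 9.35 at 24 h, against 9.46, 9.66 and 10.10 in untreated MPP. For the interferon-stimulated genes it was 8.65, 8.55 and 8.73 at 24 h, against 8.86, 8.89 and 9.47 in untreated MPP. Untreated replicate 3 was the highest array in both lists. The median change of the NF-κB list was −0.41 with this array and −0.18 without it. For the interferon list it was −0.30 with and −0.09 without. Ptgs2 had 7.52, 7.53 and 7.50 at 24 h, against 8.59, 8.74 and 9.96 in untreated MPP. Its change of −1.58 ± 0.37 was not called without the replicate block (−1.58, adjusted p = 0.015), nor without replicate 1 (−1.83, adjusted p = 0.0509), without replicate 2 (−1.76, adjusted p = 0.0192), without replicate 3 (−1.14, adjusted p = 0.0286), without MPP 24 h replicate 1 (−1.59, adjusted p = 0.0285), without MPP 24 h replicate 2 (−1.51, adjusted p = 0.0343), without MPP 24 h replicate 3 (−1.63, adjusted p = 0.0215) and without untreated MPP replicate 3 (−0.996, adjusted p = 0.0328). Oas2 fell by 1.05 ± 0.15, a call that was lost without replicate 3 (−0.87) and without untreated MPP replicate 3 (−0.86). Ifitm6, whose homologs restrict viruses, had 8.63, 9.22 and 9.12 at 24 h, against 11.67, 11.99 and 11.29 in untreated MPP, and fell by 2.66 ± 0.12. Tnf differed by −0.98 ± 0.35 and Cxcl10 by −0.77 ± 0.60, both uncalled with wide errors. Without untreated replicate 3 these values were −0.49 for Tnf and 0.20 for Cxcl10, which turned in sign. Among 19 apoptosis regulators only Fas fell (−1.19 ± 0.20), and this call was lost without replicate 2 (−1.28, adjusted p = 0.0115), without replicate 3 (−0.88) and without untreated MPP replicate 3 (−0.83).

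Genes of metabolism changed in small numbers. Of 24 genes of the amino acid stress response 4 fell and none rose, with a median of −0.37. They were Bcat1 (branched-chain aminotransferase, −1.28 ± 0.09), the stress transcription factor Atf3 (−1.19 ± 0.09), Nupr1 (−1.18 ± 0.10) and Chac1, which degrades glutathione (−1.11 ± 0.06). Chac1 had 8.90, 8.68 and 8.69 at 24 h, against 9.91, 9.87 and 9.82 in untreated MPP, a separation of about 1 log2 unit with little spread. Asns, the asparagine synthetase, was 12.22 ± 0.05 at 24 h and 12.82 ± 0.05 in untreated MPP, a difference of −0.60 ± 0.06. Of 25 glutathione and antioxidant genes 2 rose, Gstm1 (1.08 ± 0.07) and Ggt5 (1.13 ± 0.06), and 3 fell, Slc7a11, Hmox1 and Chac1. Hmox1, heme oxygenase, had 9.28, 9.50 and 9.55 at 24 h, against 10.62, 11.01 and 10.93 in untreated MPP. Slc7a11, the cystine importer, had 8.31, 8.04 and 8.33 at 24 h, against 9.78, 9.78 and 10.56 in untreated MPP. Untreated replicate 3 was its highest array, and its change of −1.81 ± 0.37 was not called without replicate 1 (−1.99, adjusted p = 0.0447), without replicate 3 (−1.61, adjusted p = 0.0141), without MPP 24 h replicate 2 (−1.60, adjusted p = 0.0213) and without untreated MPP replicate 3 (−1.44, adjusted p = 0.0185).

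Among 23 lipid genes Hpgds, which makes prostaglandin D2, rose (1.52 ± 0.07) and Lpl, lipoprotein lipase, fell (−1.91 ± 0.13). Apoe was 12.24 ± 0.22 at 24 h and 11.45 ± 0.27 in untreated MPP, a difference of 0.79 ± 0.18 that was not called. Kcne3 and Slc7a11 were the only calls among 20 channels and transporters. No gene was called among 17 genes of cholesterol synthesis, 21 of S phase, 19 of G2 and mitosis and 16 G1 regulators. Mki67, present in cycling cells, had 13.16, 13.21 and 13.12 at 24 h, against 13.14, 13.12 and 13.02 in untreated MPP. Pcna, a clamp of the replication fork, had 13.23, 13.25 and 13.31 at 24 h, against 13.28, 13.22 and 13.27 in untreated MPP. In both genes the groups overlapped, and the medians of the S phase and mitosis lists were 0.01 and 0.02. Cdkn1a was not analysed here.

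**Figure D2:**
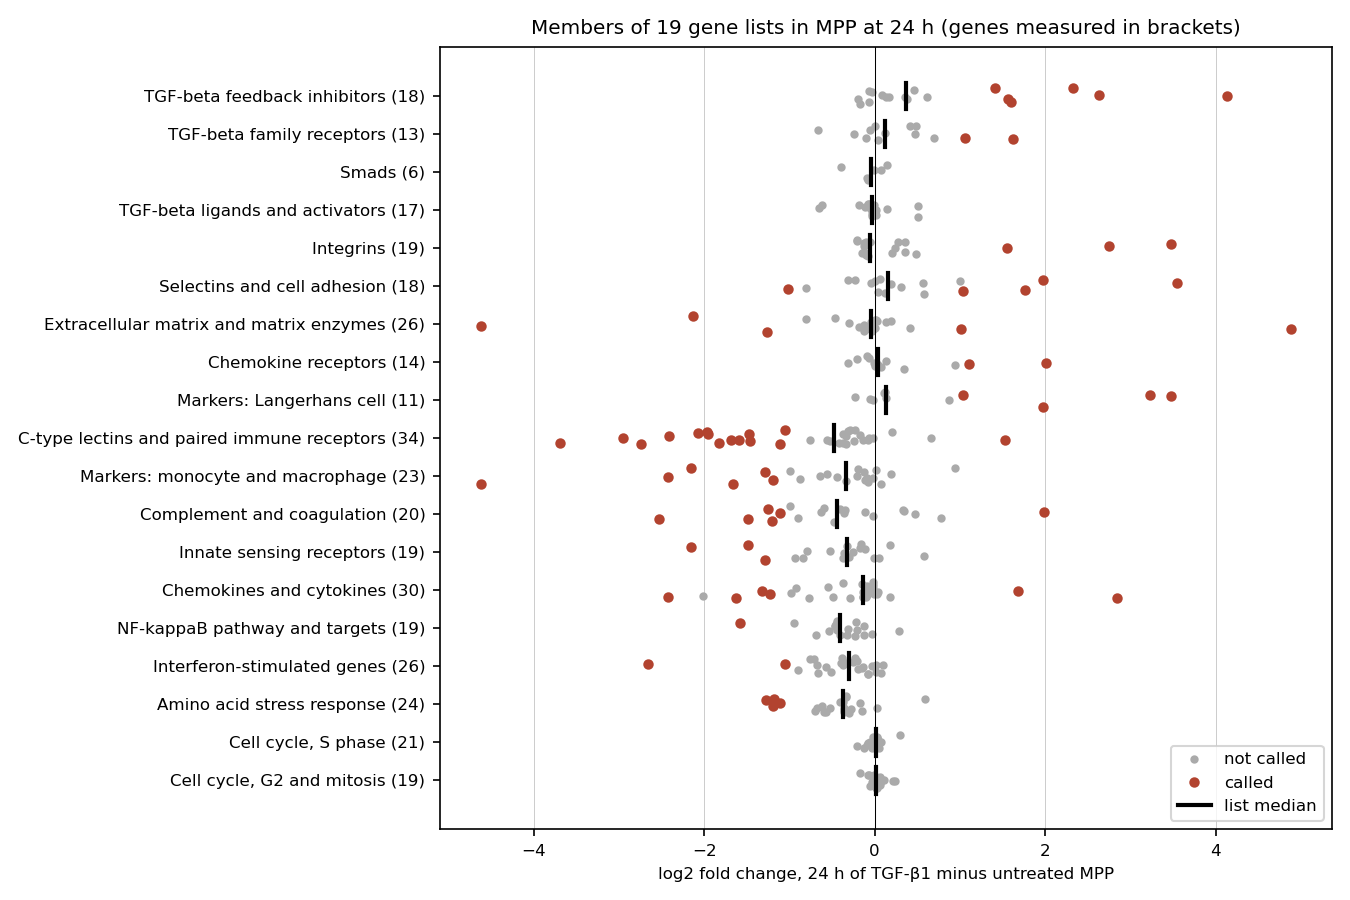
Log2 fold change at 24 h of TGF-β1 against untreated MPP (x axis) of every measured member of 19 gene lists (rows, with the number measured). Red points were called, grey points were not, and black bars are list medians, which run from −0.47 for C-type lectins and paired receptors to 0.37 for the feedback inhibitors, beside −0.01 over all genes. Vertical scatter within a row carries no value.

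Markers of other blood cells were described by list. Of 11 Langerhans cell markers 4 rose and none fell, namely Itgae, Axl, Cldn1 and Cdh1, with a list median of 0.14. The summed log2 level of the list was 104.7 to 107.0 at 24 h, against 94.3 to 95.6 in untreated MPP. This sum includes the 4 called genes, so it is not evidence apart from their calls. The defining marker Cd207 (langerin) was at 5.97, 6.25 and 6.01 at 24 h, against 6.07, 6.07 and 6.26 in untreated MPP, near the dim end of the scale in both, and Epcam had 6.62, 6.36 and 6.40 at 24 h, against 6.29, 6.36 and 6.36 in untreated MPP. Of 16 conventional dendritic cell markers 2 rose, Itgax and Flt3, and of 14 CDP markers 1, Flt3. Irf8, a transcription factor that dendritic and monocytic progenitors share, was 12.95 ± 0.03 at 24 h and 12.29 ± 0.14 in untreated MPP, a difference of 0.66 ± 0.05. Of 9 genes of MHC class II presentation none was called, with a median of 0.33 and H2-Oa at 0.84 ± 0.08. The plasmacytoid list had 1 rise, Siglech, and 1 fall, Cox6a2, −1.05 ± 0.09, which was not called without the replicate block (−1.05, adjusted p = 0.0207), nor without replicate 1 (−0.97), without MPP 24 h replicate 1 (−0.96) and without MPP 24 h replicate 2 (−0.98).

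In the mast cell and basophil list 1 of 19 rose, Mcpt2, while the defining Cpa3 (0.13 ± 0.10) and Kit (−0.14 ± 0.05) were not called, and Gata2 was 10.51 ± 0.15 at 24 h and 9.75 ± 0.14 in untreated MPP, a difference of 0.76 ± 0.09. The eosinophil list had 1 rise of 7, Siglecf (2.06 ± 0.09), with 11.69, 11.21 and 11.31 at 24 h, against 9.35, 9.43 and 9.26 in untreated MPP, and its granule genes Epx (0.00 ± 0.06) and Prg2 (0.25 ± 0.17) were not called. The megakaryocyte list had F2r, the erythroid list Car2 (1.28 ± 0.17, not called without replicate 1 (1.07, adjusted p = 0.0133)), and the T and NK cell list a rise of Cd7 (1.76 ± 0.14) and a fall of Cd28 (−2.22 ± 0.10), with Cd3e at −0.07 ± 0.05. In the neutrophil list of 20 genes Cxcr2 rose and Mmp8 fell, and the granule genes Mpo (−0.03 ± 0.04), Elane (0.14 ± 0.03), Prtn3 (−0.07 ± 0.04) and Ctsg (−0.16 ± 0.04) were not called. No B cell marker of 11 was called. Of 18 stem cell and MPP markers 1 rose, Flt3, and none fell.

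Of 259 microRNA precursors 1 was called, counting those with a hairpin in RefSeq. MicroRNAs silence messenger RNAs that pair with bases 2 to 8 of the mature strand, the seed. Mir181b-2 had 9.28, 9.33 and 9.27 at 24 h, against 7.93, 7.76 and 7.22 in untreated MPP, a rise of 1.65 ± 0.23 (adjusted p = 8.12e-05) that was not called without the replicate block (1.65, adjusted p = 0.0496). Its neighbour Mir181a-2 had 8.62, 8.42 and 8.07 at 24 h, against 7.595, 7.61 and 7.50 in untreated MPP, a difference of 0.80 ± 0.13 below the fold limit. The mature strands are shown because the 2 precursors, neighbours on chromosome 2, share their seed, in capitals.
mmu-miR-181a-5p (chr2:38852741-38852763): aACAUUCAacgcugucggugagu
mmu-miR-181b-5p (chr2:38853845-38853868): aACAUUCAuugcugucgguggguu
The array measured RNA that holds the precursor, not the mature strands.

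Genes differed in when they reached their 24 h level. Pmepa1 had mean log2 intensities of 7.59, 11.16, 11.17, 11.54, 11.75 and 11.72 at 0, 2, 4, 8, 12 and 24 h. Spsb1 had 8.70, 11.44, 11.19, 11.32, 11.27 and 11.33 at the same times, with its highest mean at 2 h. Chad had 7.15, 9.07, 9.83, 10.99, 11.50 and 12.04, and Vcan 12.68, 12.21, 11.06, 9.65, 8.81 and 8.06. Neither was called between 24 h and 12 h, with differences of 0.54 ± 0.06 for Chad and −0.75 ± 0.15 for Vcan, both under the log2 fold limit of 1 (adjusted p = 2.18e-04 and 0.017). The direct comparison of 24 h with 12 h, in the same fit, called 14 genes (0.0702% of all), 9 higher at 24 h and 5 lower. Without the replicate block it called 5 of these (Cldn1, Itgae, Cd7, Gna14 and Cd96).

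Cldn1 was called at no earlier time, with means of 6.75, 6.70, 6.70, 6.84, 6.72 and 8.73 at 0 to 24 h. Its arrays had 9.03, 8.39 and 8.77 at 24 h, against 6.66, 6.70 and 6.81 at 12 h, a difference of 2.01 ± 0.13 between the 2 times (adjusted p = 1.03e-06). Itgae had 11.002, 10.34 and 10.41 at 24 h, against 8.64, 8.60 and 8.77 at 12 h, a difference of 1.91 ± 0.12. Cd7, a surface protein of T and NK cells and their progenitors, had 9.79, 9.03 and 9.17 at 24 h, against 7.83, 7.63 and 7.52 at 12 h, a difference of 1.67 ± 0.14. In all 3 genes the groups did not overlap, replicate 1 was the highest array at 24 h, and the call was kept under every alternative tried. Gna14 (1.19 ± 0.11), Dpp4 (the peptidase CD26, 1.19 ± 0.07), Itgax (1.18 ± 0.11), Cd96 (1.06 ± 0.10) and Rtn4rl1 (1.05 ± 0.10) were also higher at 24 h than at 12 h. The ninth gene, Kmo, an enzyme of the kynurenine pathway (1.01 ± 0.09), was not called against untreated MPP, where its change was 0.86 ± 0.09. Between 24 h and 12 h the call of Gna14 was lost without MPP 24 h replicate 1 (0.99), that of Cd96 without MPP 12 h replicate 3 (0.99), that of Rtn4rl1 without MPP 12 h replicate 3 (0.94), without MPP 24 h replicate 1 (1.000), without replicate 2 (1.07, adjusted p = 0.0117) and without replicate 3 (0.97), and that of Kmo without MPP 12 h replicate 2 (0.94), without replicate 1 (1.02, adjusted p = 0.011) and without replicate 2 (0.95, adjusted p = 0.0124).

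Saa3, an acute-phase protein gene, had 11.33, 11.39 and 11.58 at 24 h, against 12.43, 13.31 and 12.54 at 12 h, a difference of −1.33 ± 0.17. Clec4d (−1.11 ± 0.21), Clec4a1 (−1.08 ± 0.18), Pilra (−1.04 ± 0.15) and Anpep, aminopeptidase N (−1.23 ± 0.23), were the other genes lower at 24 h than at 12 h. All 5 lost their call without replicate 1, with differences of −1.54 to −1.03 with adjusted p of 0.0195 to 0.14. They lost it again without replicate 2, with differences of −1.03 to −0.67 with adjusted p of 0.0323 to 0.174. Each time 8 genes were called, all higher at 24 h. Anpep was 7.46 ± 0.25 at 24 h and 8.40 ± 0.47 in untreated MPP, a difference of −0.94 ± 0.23 against untreated MPP that was not called.

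**Figure D3:**
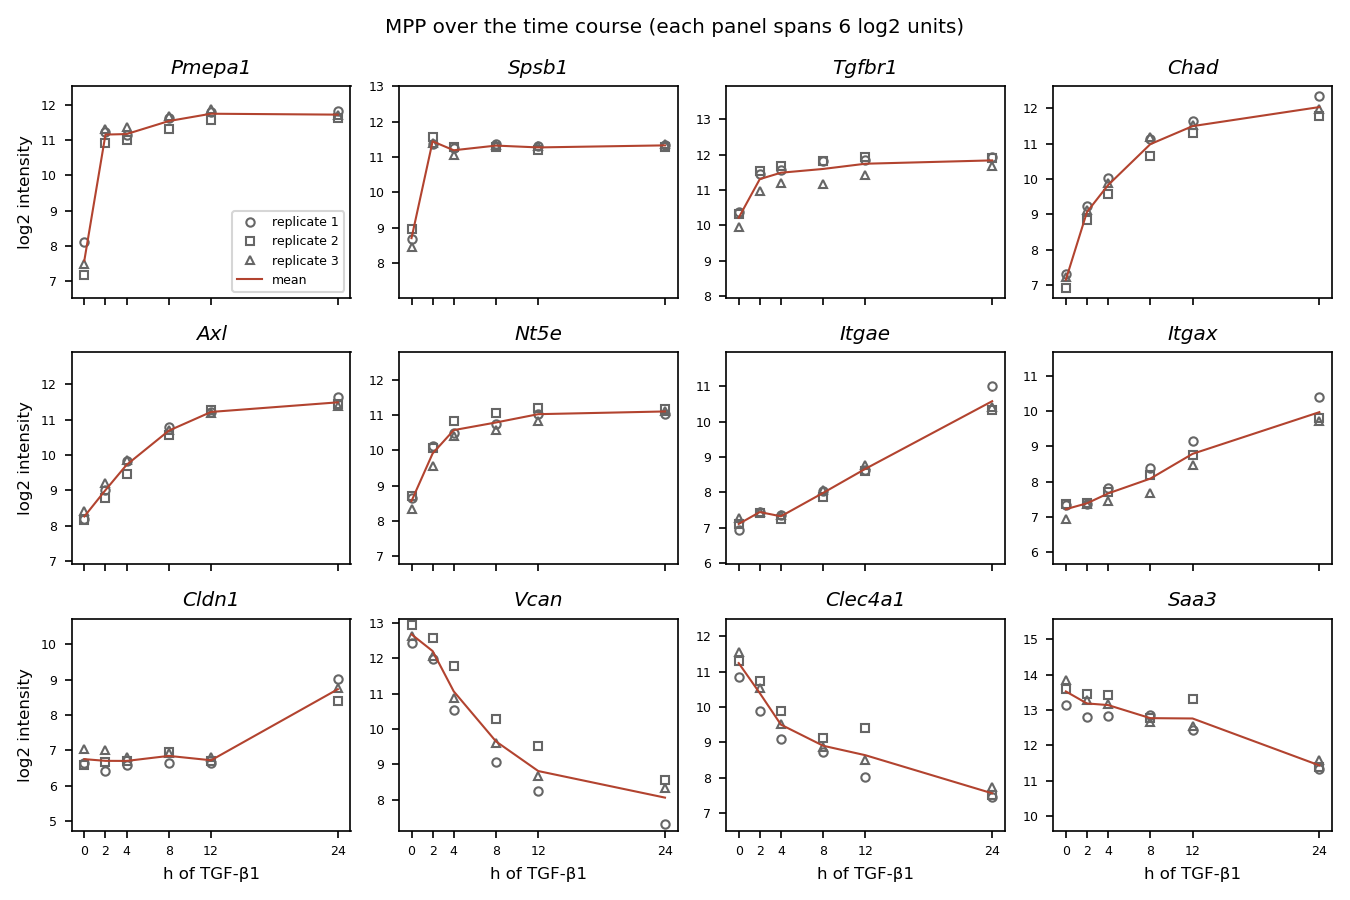
Log2 intensity (y axis, 6 log2 units in every panel) of 12 genes in MPP at 0, 2, 4, 8, 12 and 24 h of TGF-β1 (x axis). Symbols are the 3 replicates and the line joins the group means. Pmepa1, Spsb1 and Tgfbr1 had risen by 2 h, Chad, Axl and Nt5e rose over several times, Itgae, Itgax and Cldn1 rose late, and Vcan, Clec4a1 and Saa3 fell.

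The last comparison asks where MPP responded differently from CDP at 24 h. It was tested as the CDP change minus the MPP change over all 36 arrays. Of 19938 genes 369 differed (1.85%), and 62 of them were among the 240 called in MPP. Thus 178 of the 240 had no call for a difference, which does not show that the changes were equal. CDP had 270 rises (1.35% of all genes) and 357 falls (1.79%) at 24 h. The lists shared 81 rises, 56.6% of those in MPP and 30.0% of those in CDP, and 73 falls, 75.3% of those in MPP and 20.4% of those in CDP. Another 3 genes rose in MPP and fell in CDP, and 0 did the reverse. The 3 were Cyp4f18 (1.53 in MPP, −1.01 in CDP), Padi2 (1.18 in MPP, −1.29 in CDP) and Dhrs3 (1.15 in MPP, −1.41 in CDP). All 3 were also called for the difference. Chad (4.89 ± 0.06 in MPP and 4.43 ± 0.14 in CDP), Pmepa1 (4.13 ± 0.12 in MPP and 4.20 ± 0.23 in CDP), Spsb1 (2.63 ± 0.09 in MPP and 2.62 ± 0.12 in CDP) and Vcan (−4.62 ± 0.15 in MPP and −4.69 ± 0.12 in CDP) were among those with no called difference. Of the 62 genes, 26 rose in MPP with a lower change in CDP, 10 rose with a higher change in CDP, 20 fell in MPP with a lower change in CDP and 6 fell with a higher change in CDP.

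The rises in MPP that were not called in CDP and differed from it included a protease, a cytokine, a receptor and an ectoenzyme. Mcpt2 was 9.80 ± 0.61 at 24 h and 6.49 ± 0.86 in untreated MPP, while in CDP it was 5.66 ± 0.16 at 24 h and 5.54 ± 0.04 in untreated CDP (SD, n = 3 each), and the CDP minus MPP difference was −3.19 ± 0.33 (adjusted p = 7.45e-08), not called without the replicate block (−3.19, adjusted p = 0.0282). Nt5e was 11.10 ± 0.07 at 24 h and 8.57 ± 0.19 in untreated MPP, while in CDP it was 7.73 ± 0.17 at 24 h and 7.72 ± 0.14 in untreated CDP, a difference of −2.52 ± 0.18 (adjusted p = 9.11e-11). Cxcr2 changed by 2.01 ± 0.11 in MPP and −0.55 ± 0.25 in CDP, a difference of −2.57 ± 0.29. Il6 changed by 2.85 ± 0.12 in MPP and 0.78 ± 0.41 in CDP, a difference of −2.07 ± 0.46. The Il6 difference was not called without the replicate block (−2.07, adjusted p = 0.0149), nor without replicate 1 (−2.19, adjusted p = 0.0529), without replicate 2 (−1.72, adjusted p = 0.0793) and without untreated CDP replicate 2 (−1.86, adjusted p = 0.0102). Hes1 (1.67 in MPP, 0.44 in CDP) and Gstm1 (1.08 in MPP, −0.87 in CDP) were further rises of this kind.

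Other rises were larger in CDP. Cldn1 was 8.73 ± 0.32 at 24 h and 6.75 ± 0.25 in untreated MPP, while in CDP it was 12.92 ± 0.30 at 24 h and 6.90 ± 0.11 in untreated CDP, a difference of 4.04 ± 0.24 (adjusted p = 6.98e-12). Gna14 changed by 1.85 ± 0.11 in MPP and 5.07 ± 0.11 in CDP, and Cdh1 by 1.04 ± 0.13 in MPP and 4.00 ± 0.24 in CDP. These 2 differences were 3.23 ± 0.16 and 2.96 ± 0.29, while that of Itgae was 1.41 ± 0.22. Kit was not called in MPP (−0.14 ± 0.05) and rose in CDP (2.79 ± 0.26), a difference of 2.93 ± 0.28, and its mean was 11.16 ± 0.10 at 24 h and 11.30 ± 0.10 in untreated MPP, while in CDP it was 11.42 ± 0.55 at 24 h and 8.63 ± 0.23 in untreated CDP. Ly6i, Fam189a2, Ifnlr1 and Alox5 made up the rest of the 8 largest positive differences (2.90 to 3.38), with MPP changes of −0.16 to 0.83. Without untreated MPP replicate 3 the MPP change of Ly6i turned in sign (0.43) and its difference was 2.79. That difference was not called without replicate 2 (2.88, adjusted p = 0.0509).

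The most negative differences were mostly genes that fell in CDP and were not called in MPP. Cd22, an inhibitory lectin of B cells, was 7.003 ± 0.07 at 24 h and 6.92 ± 0.09 in untreated MPP, while in CDP it was 7.14 ± 0.02 at 24 h and 10.68 ± 0.23 in untreated CDP. Ctsg, the granule protease cathepsin G, was 13.62 ± 0.05 at 24 h and 13.78 ± 0.05 in untreated MPP, while in CDP it was 7.86 ± 0.19 at 24 h and 11.45 ± 0.21 in untreated CDP. The differences were −3.62 ± 0.20 and −3.43 ± 0.11. Tlr8 (−3.10 ± 0.23), Mmp8 (−3.01 ± 0.27), the haptoglobin gene Hp (−2.83 ± 0.26), the guanine deaminase gene Gda (−2.75 ± 0.16) and the Fc receptor gene Fcgr3 (−2.71 ± 0.29) completed the 8 with Mcpt2. Mmp8 fell in both cell types, with changes of −2.13 ± 0.17 in MPP and −5.14 ± 0.18 in CDP. Among lists, the median of C-type lectins and paired receptors was −0.47 in MPP and −1.82 in CDP, and that of Langerhans cell markers 0.14 in MPP and 2.34 in CDP.

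**Figure D4:**
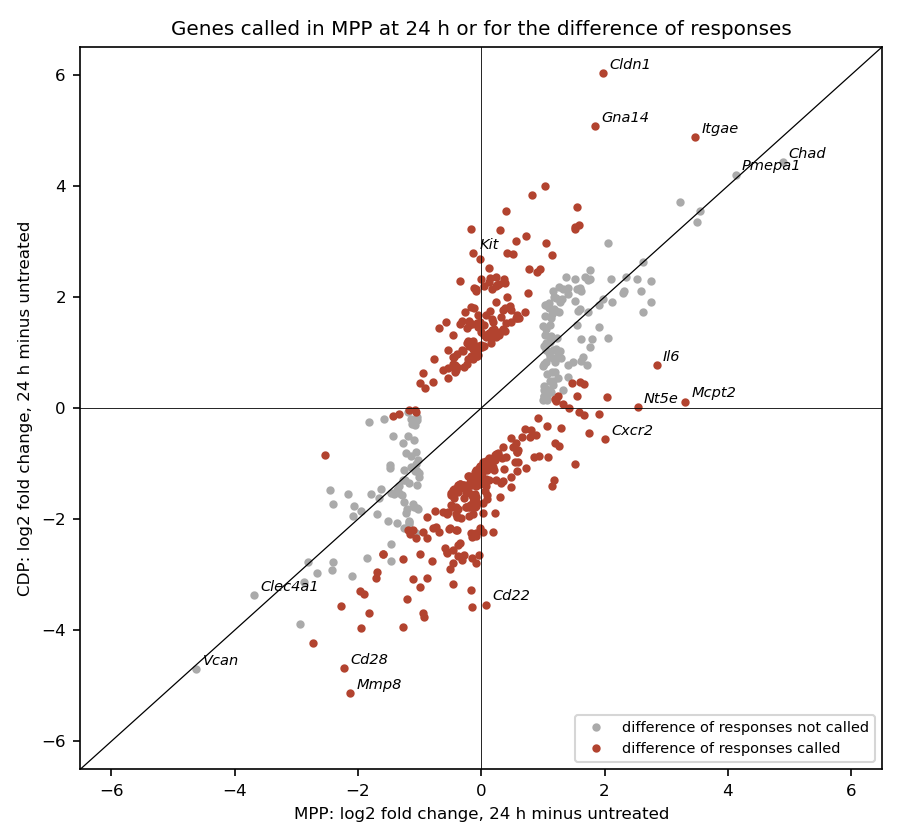
Log2 fold change at 24 h of TGF-β1 against untreated cells in MPP (x axis) and in CDP (y axis) for every gene called in MPP or for the difference of responses. Red points were called for the difference, grey points were not, and the diagonal marks equal changes. Mcpt2, Il6, Nt5e and Cxcr2 lie far right with CDP changes of −0.55 to 0.78, Cldn1 and Gna14 lie above the diagonal, and Chad and Vcan lie near its ends.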

How the data were processed

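Deposited log2 values of 36 Affymetrix Mouse Gene 1.0 ST arrays were used, which the authors made with Affymetrix Power Tools and RMA per the labels' processing notes (background correction, quantile normalization and probe summary), versions not given in the sources used here. The study's own tests used another summary (FARMS) and were not repeated. Of 35556 probe sets 21789 carried 1 gene symbol, 1621 several and 12146 none, and the probe set with the highest mean was kept for each of 19938 genes. Arrays have no read depth, so 3 arrays per group limit the precision. A limma fit (limma 3.58.1, R 4.3.3) of 18 MPP arrays held group and replicate number, and one of 36 arrays replicate number within cell type. Calls needed a Benjamini-Hochberg adjusted p under 0.01 and a log2 fold of 1, two-sided, the study's thresholds. Numbers were taken to pair the arrays. Deviations of treated arrays correlated with those of the same-numbered untreated array at 0.189 to 0.604, for 3 numbers at each of 5 times. The highest correlation with a differently numbered untreated array was −0.309 to 0.097. The margin was narrowest for replicate 2 at 12 h (0.209 against 0.097). Deviations were taken from the mean of 3 arrays, which by itself lowers correlations between different numbers.

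Named genes were the 20 largest called changes each way with 3 of 3 pairs alike, every called list member, up to 4 bright uncalled members per list with defining markers, the 8 largest each way between 24 h and 12 h and between CDP and MPP, and the TGF-β pathway in full. Genes named outside this rule were chosen after their values were seen. The gene lists (41) and members were chosen with earlier results of these data known. Promoter and miRNA sequences came from RefSeq (GRCm38.p6), matched by symbol. A gene list and a promoter are not reported here. Alternatives were no block, only the groups compared, other probe set, dim-gene, scaling, trend, weight, threshold and treat settings, and leaving out replicates and arrays. The fit was tested on simulated data.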

Additional observations from a re-analysis of the deposited data

Results flagged for a closer look

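Below, each value is the CDP change minus the MPP change at 24 h (log2), and every gene is named because this difference passed the test over all genes (adjusted p under 0.01 and at least 1 in size, limma, 36 arrays). Among genes that rose in MPP, the change was lower in CDP for Mcpt2 (−3.19), Cxcr2 (−2.57), Nt5e (−2.52), Il6 (−2.07), Gstm1 (−1.95) and Hes1 (−1.23). The CDP changes of Gstm1 (−0.87) and Cxcr2 (−0.55) were below 0, and neither reached the log2 fold limit of 1. Genes called in opposite directions in MPP and CDP are given with the comparison of the responses above. The change was higher in CDP for Cldn1 (4.04), Gna14 (3.23), Cdh1 (2.96), Hpgds (1.74), Siglech (1.69) and Itgae (1.41). Among genes that fell in MPP, Serpinb10 had a higher change in CDP (1.68). Its mean was 6.82 at 24 h and 9.35 in untreated MPP, while in CDP it was 5.93 at 24 h and 6.78 in untreated CDP. The change was lower in CDP for Mmp8 (−3.01), Lox (−2.67), Cd28 (−2.46), Adgre1 (−2.24), Clec4n (−1.99), Clec4a2 (−1.97), Pilra (−1.87), Cd300ld (−1.499), Bcat1 (−1.45), Lpl (−1.44), Pilrb1 (−1.32), Ms4a4a (−1.29), Fcgr4 (−1.26), Rnd3 (−1.11), C3ar1 (−1.09), Pilrb2 (−1.04) and Atf3 (−1.002). Genes with no call in MPP were Ly6i (3.38), Fam189a2 (3.16), Ifnlr1 (3.01), Kit (2.93), Alox5 (2.90), Cd22 (−3.62), Ctsg (−3.43), Tlr8 (−3.10), Hp (−2.83), Gda (−2.75) and Fcgr3 (−2.71). Lox moved to −3.27 without replicate 3, and Ly6i to 2.79 without untreated MPP replicate 3. Untreated means of Lox were 7.56 in MPP and 10.66 in CDP.

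Part of these differences depended on the pairing of the arrays. Without the replicate block the call was lost for Mcpt2 (−3.19, adjusted p = 0.0282), Il6 (−2.07, adjusted p = 0.0149), Adgre1 (−2.24, adjusted p = 0.0174), Clec4n (−1.99, adjusted p = 0.0563), Clec4a2 (−1.97, adjusted p = 0.0168), Lpl (−1.44, adjusted p = 0.0561), Pilrb1 (−1.32, adjusted p = 0.0261), Ms4a4a (−1.29, adjusted p = 0.0818), Fcgr4 (−1.26, adjusted p = 0.0306), Rnd3 (−1.11, adjusted p = 0.0636), C3ar1 (−1.09, adjusted p = 0.407), Pilrb2 (−1.04, adjusted p = 0.111) and Atf3 (−1.002, adjusted p = 0.0219). Leaving out arrays ended it for Clec4n without replicate 1 (−1.80, adjusted p = 0.0101), Pilrb1 without replicate 1 (−1.26, adjusted p = 0.0326), Lpl without replicate 2 (−1.35, adjusted p = 0.0252), Ms4a4a without replicate 2 (−1.32, adjusted p = 0.0119) and Fcgr4 without replicate 3 (−0.94). It was also lost for Rnd3 without CDP 24 h replicate 2 (−0.96), without MPP 24 h replicate 3 (−0.99), without replicate 1 (−1.17, adjusted p = 0.023) and without replicate 2 (−0.89, adjusted p = 0.0727). Atf3, C3ar1 and Pilrb2 lost it when any of several arrays was left out, with C3ar1 lowest in size at −0.52 without replicate 2 and Pilrb2 at −0.78 without MPP 24 h replicate 3.

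Probe sets outside the gene comparison also carried signal. Of 12146 with no gene symbol 77 were called at 24 h, 69 higher and 8 lower, and of 1621 with several symbols 11 were called, 1 higher and 10 lower. Those with several symbols were mostly families of near-identical receptor genes (Cd300ld3 to Cd300ld5, the Sirpb1 genes, the Pira genes) and the adult β-globin genes.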

How the results depend on the processing

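The count of 240 genes at 24 h against untreated MPP stayed between 218 and 285 under all alternatives run, namely 228 without the replicate block, 285 with limma's treat test at a log2 fold of 0.5, and 218 to 249 when replicates or single arrays were left out. Of the 240 genes 168 kept their call under every alternative and 72 lost it under at least 1, 31 of them without untreated MPP replicate 3. No change of the 102 named genes called at 24 h against untreated MPP reversed in sign. The uncalled MPP changes of Cxcl10 and Ly6i turned in sign without untreated MPP replicate 3. Members of the lists numbered 88 called genes, and 84 without untreated MPP replicate 3. The 14 genes between 24 h and 12 h were less stable: 5 were called without the replicate block, 8 with only the arrays of the groups compared and 5 with treat, and leaving out replicates or single arrays gave 8 to 18. Of the 14 genes 9 were higher and 5 lower at 24 h, and the split was 9 and 3 with the median of each array set equal, 8 and 3 after quantile normalization, and 8 and 0 without replicate 1. The cause was not tested. The CDP minus MPP difference gave 369 genes, and 287 to 420 under its alternatives. For these 102 genes, all called at 24 h against untreated MPP, 1849 of 1938 alternative values kept the call and 89 lost it. Of these genes, only those given with their values without the replicate block lost their call that way. The number of arrays and the compressed changes of dim probe sets limit the precision.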

Other observations

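Some called genes outside the lists form groups by function. They were picked after their values were seen and carry no test as groups. In purine signalling, Nt5e rose by 2.54 ± 0.09, Entpd1 (CD39, which breaks down extracellular ATP) by 1.14 ± 0.07 and the nucleotide receptor gene P2ry6 by 1.48 ± 0.07. Genes of sphingosine 1-phosphate signalling rose as well, the receptor gene S1pr1 by 1.32 ± 0.11 and the exporter gene Spns2 by 1.12 ± 0.06. Beside the claudin and JAM-A genes, the junction genes Tjp1 (ZO-1, 1.20 ± 0.09) and Dsp (desmoplakin, 1.53 ± 0.08) rose. The transcription regulator genes Hmga2 (1.91 ± 0.08) and Vdr (the vitamin D receptor, 1.60 ± 0.09) rose.

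C5ar2, the second C5a receptor gene, rose by 1.40 ± 0.11, while C5ar1 fell by 1.49 ± 0.17. C5ar2 had 10.31, 10.41 and 10.57 at 24 h, against 8.81, 9.48 and 8.78 in untreated MPP, and the groups did not overlap. Vipr1, a receptor gene for vasoactive intestinal peptide, is measured by 2 probe sets that disagree, with changes of 1.59 and 0.15.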
